A study of Mus musculus with 4 samples.

Results

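The 9 genes described here were the receptors of the SLAM family (Slamf1, Slamf6, Slamf7, Slamf8, Slamf9, Ly9, Cd48 and Cd84) and Sh2d1a, which encodes the adaptor SAP. They were chosen by name from 50600 genes in the deposited count tables, of which 21764 are protein-coding, and all 9 were found. Their RNA was measured in 4 libraries of T helper 17 (Th17) cells, a CD4 lineage named for its cytokine IL-17. The cells were mouse primary cells of strain C57BL/6NJ, and the linked protocol is named for the differentiation of CD4 T cells. Replicate numbers 1 to 4 are biological per the labels, which give 1 donor entry for all of them and leave sex and age open. A 24 hour time point is named in the headers of the deposited tables and nowhere in the labels. There was no untreated, precursor or other cell type in the study, so each value is a level in 1 group of cells and not a response.

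SLAM receptors are immunoglobulin-like proteins on the surface of blood cells, and most of them bind another copy of themselves on a neighbouring cell. The part of the receptor inside the cell can carry a short tyrosine motif, the immunoreceptor tyrosine-based switch motif. SAP is little more than a single SH2 domain that docks on this motif, recruits the kinase FYN and keeps inhibitory phosphatases away from it. In humans, loss of SAP causes X-linked lymphoproliferative disease, and in mice it impairs follicular help and the development of natural killer T cells.

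The switch motif is the docking site that ties the receptors to SAP, so its coding sequence is shown for the members that hold it near the end of the protein. In each 18-base stretch, capitals mark the codons for threonine, tyrosine and the closing valine or isoleucine, the residues that define the motif. The sequences are read along the coding strand of the longest complete coding sequence in GENCODE M21, on the mm10 assembly of the mouse genome.
Ly9, first match (chr1:171593912-171593929, minus strand): ACTccaTATgataaaGTG
Ly9, second match (chr1:171593438-171593455, minus strand): ACAatcTACtgctctGTG
Slamf1, first match (chr1:171792339-171792356, plus strand): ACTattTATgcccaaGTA
Slamf1, second match (chr1:171799588-171799605, plus strand): ACAgttTATgccagtGTG
Cd84, first match (chr1:171884605-171884622, plus strand): ACAgtaTATgctgtaGTT
Cd84, second match (chr1:171885601-171885618, plus strand): ACCattTATtcctcaGTG
Slamf6, first match (chr1:171939437-171939454, plus strand): ACTgtgTATgcacaaGTC
Slamf6, second match (chr1:171941664-171941681, plus strand): ACAattTACtccataGTT
Slamf7, single match (chr1:171636327-171636344, minus strand): ACAtttTATtccactGTG

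All 9 stretches close with a valine codon, and tyrosine is spelled TAC in 2 of them and TAT in the other 7. Ly9, Slamf1, Cd84 and Slamf6 held 2 matches each, and Slamf7 held 1. The pattern occurs at least once in the coding sequence of 7.91% of 21594 genes searched and at least 2 times in 0.607% of them. The matches of these 5 receptors begin in the last part of the protein, with 5 to 64 codons left after them. Slamf1 has the match closest to its end, with 5 codons after it, in a protein of 343 codons.

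The pattern also matched once in Cd48 and once in Slamf8, but with 130 and 159 codons still to follow. CD48 is held in the membrane by a lipid anchor and has no part inside the cell, so a match in its coding sequence is a match of letters and not a docking site. Slamf9 and Sh2d1a held no match. A match of letters was not tested for SAP binding in these data.

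**Figure D1:**
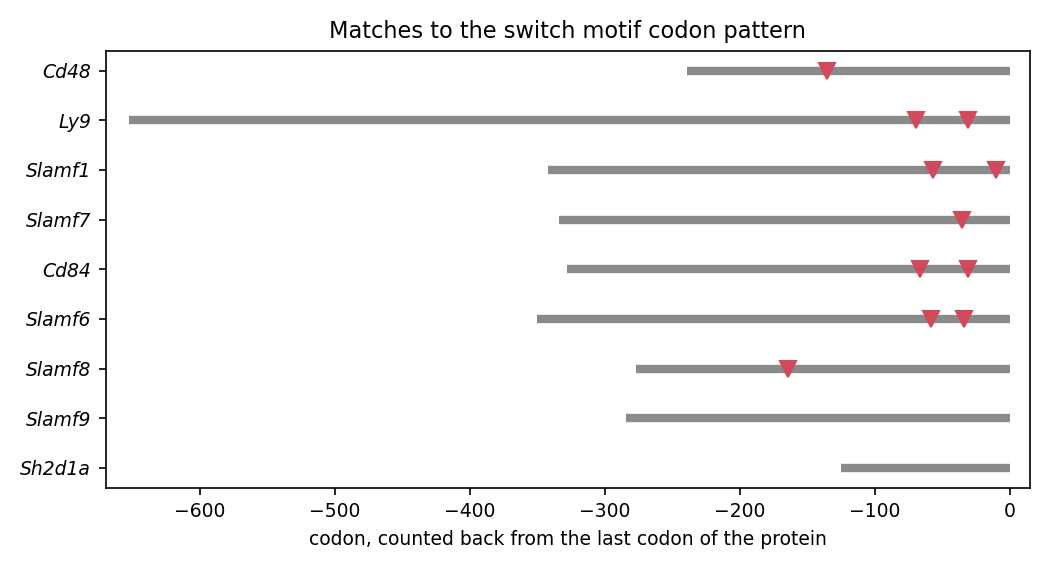
Place of each match to the switch motif codon pattern in the 9 proteins, drawn as bars of their coding length and aligned at the last codon (x axis, codons counted back from the end). The matches of Ly9, Slamf1, Slamf7, Cd84 and Slamf6 crowd at the right end, whereas those of Cd48 and Slamf8 have 130 and 159 codons after them.

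Total counts were 19332509 to 48558772 read pairs per library, in 16486 to 18085 genes. At this depth, 3 counts in a gene with 1 kb of exons equal 0.206 to 0.518 TPM in 1 library (TPM is a level scaled to exon length and to the library's total). Marker genes of the labelled cell type are given next, from lists chosen with earlier results of these data known. Their levels are thus no test of the label. All 8 Th17 markers lay above 1 TPM, beside 45.9% of all protein-coding genes. They were led by Il17f at 492 ± 71.4 TPM (SD, n = 4), Il22 at 118 ± 22.1 TPM and Il17a at 46.0 ± 6.13 TPM. The receptor gene Il23r was lowest at 14.4 ± 2.70 TPM. Reads of Il22 are uncertain because other genes share 41.0% of its 50-base words. Of 8 pan T cell markers, 7 are protein-coding and lay above 1 TPM, with Cd5 at 1985 ± 36.1 TPM, Lat at 475 ± 13.5 TPM and Cd3g lowest at 49.8 ± 4.64 TPM; Trac, which was not tested, stood at 1163 ± 13.2 TPM. Of the 8 Th17 markers, Ahr (30.9, 31.4, 35.8 and 21.04 TPM) and Il17f (557, 391, 501 and 521 TPM in replicates 1 to 4) were called as varying between libraries at the dispersion trend that edgeR fits, with adjusted p-values of 6.08e-05 and 0.047. Ahr was lowest in replicate 4 and Il17f in replicate 2, and their part in the members' levels was not tested. The libraries also stood apart in genes of the sex chromosomes. Xist had 0.916, 1.01, 154 and 152 TPM and Ddx3y had 77.8, 58.9, 0.240 and 0.0925 TPM in replicates 1 to 4, which splits replicates 1 and 2 from 3 and 4 although the labels name 1 donor entry.

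Of the 9 genes, 7 were expressed and 2 were at or near 0. The level of each gene was tested against 1 TPM by edgeR's quasi-likelihood test with Benjamini-Hochberg adjustment over all protein-coding genes. It called 7 members above 1 TPM, beside 45.9% of the 21764 genes, and 2 below, beside 51.7%. DESeq2 also called 7 above, beside 45.7% of genes, and 1 below, beside 15.5%, since it gives no p for Slamf9. With the length of the longest coding transcript in place of merged exons, edgeR called 7 members above, beside 45.7% of genes, and 2 below, beside 52.2%. Such p-values rest on a spread shared with other genes, and they measure only the spread between these 4 libraries. In bulk RNA, fewer cells that express a gene and less RNA per cell cannot be told apart.

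Cd48 had the highest level per merged exon length, a place that Sh2d1a took with coding transcript lengths, as described below. CD48 is the small, lipid-anchored member of the family, and in mice it binds CD2 and 2B4. Cd48 (ENSMUSG00000015355, mm10 chr1:171682009-171705258, plus strand) had 172, 171, 161 and 166 TPM in replicates 1 to 4, a mean of 168 ± 5.10 TPM. These levels came from 2496, 1179, 1995 and 2882 read pairs, and 94.7% of protein-coding genes had a lower mean. The highest and the lowest library lay close together, and each lay above every library of the next member.

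Ly9 encodes the longest receptor of the set, also called SLAMF3, a homophilic receptor of T and B cells. Ly9 (ENSMUSG00000004707, chr1:171588624-171607410, minus strand) had 125, 126, 120 and 124 TPM, a mean of 124 ± 2.39 TPM. It gave more read pairs than any other member in every library, from 2412 in replicate 2 to 5962 in replicate 4. Cd48 led on the per-length scale because its exons span 1189 bases, against 3307 bases for Ly9.

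Slamf1 encodes SLAM itself (CD150), the founding member of the family and a receptor for measles virus in humans. Slamf1 (ENSMUSG00000015316, chr1:171767127-171801184, plus strand) had 52.8, 50.7, 52.2 and 53.2 TPM, a mean of 52.2 ± 1.09 TPM. By merged exon length, all 4 libraries lay below all of those of Ly9 and above those of every member named below.

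Slamf7 encodes CRACC (CD319), a receptor known from natural killer cells, plasma cells and activated T cells, which uses the adaptor EAT-2 in natural killer cells. Slamf7 (ENSMUSG00000038179, chr1:171632403-171653035, minus strand) had 35.1, 34.5, 35.0 and 32.6 TPM, a mean of 34.3 ± 1.16 TPM, with replicate 4 the lowest. A predicted gene on the opposite strand, Gm37787, covers 9.24% of its exon bases, and the counting was by strand.

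Cd84 encodes a homophilic receptor that supports lasting contacts between T and B cells in mice. Cd84 (ENSMUSG00000038147, chr1:171839697-171890718, plus strand) had 23.6, 26.1, 23.1 and 24.9 TPM, a mean of 24.4 ± 1.33 TPM. Replicate 2, the shallowest library, was the highest.

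Slamf6 encodes Ly108, the receptor whose isoforms differ between mouse strains prone and resistant to lupus, and which in human T cells is called NTB-A. Slamf6 (ENSMUSG00000015314, chr1:171917515-171953170, plus strand) had 10.4, 12.4, 11.0 and 11.4 TPM, a mean of 11.3 ± 0.832 TPM. By merged exon length it was the lowest of the expressed members in all 4 libraries, with an edgeR adjusted p of 4.07e-218 against 1 TPM. Even so, 65.1% of protein-coding genes had a lower mean.

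Slamf8 and Slamf9 encode the pair of receptors with short inner tails, known from macrophages and dendritic cells. Slamf8 (ENSMUSG00000053318, chr1:172581758-172590568, minus strand) had 2, 0, 1 and 0 read pairs, or 0.0533, 0, 0.0312 and 0 TPM. Its 3 read pairs over all libraries equal 0.0227 TPM, with a 95% exact Poisson interval of 0.00468 to 0.0663 TPM that covers counting error only. The edgeR adjusted p against 1 TPM was 3.99e-09, and DESeq2 gave 0.00176.

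Slamf9 (ENSMUSG00000026548, chr1:172475358-172478575, plus strand) had no read pair in any library, which allows up to 0.0532 TPM over the 4 libraries together. The edgeR adjusted p was 4.47e-08. Macrophage and dendritic cell markers, the genes of cells in which both receptors are known, were also at or near 0. By edgeR, all 12 markers lay below 1 TPM, beside 51.7% of protein-coding genes, and their summed level was 0.396 to 0.513 TPM. DESeq2 called 6 below, beside 15.5%, since it gives no p for the 6 without counts. Those 6 were Lyz2, Csf1r, Fcgr1, Mpeg1, Clec9a and Siglech. The Itgam value is uncertain because another gene shares 66.3% of its 50-base words. Any link of these levels to those of Slamf8 and Slamf9 was not tested.

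SAP was expressed in every library. Sh2d1a (ENSMUSG00000005696, chrX:42502453-42529330, plus strand) had 43.0, 40.0, 39.4 and 42.7 TPM, a mean of 41.3 ± 1.84 TPM with an edgeR adjusted p of 2.96e-323. By merged exon length it thus lay between Slamf1 and Slamf7. The gene is on the X chromosome, and its levels in replicates 1 and 2, low in Xist, overlapped with those in replicates 3 and 4, high in Xist. The part of the Xist and Ddx3y split in any member's level was not tested.

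**Figure D2:**
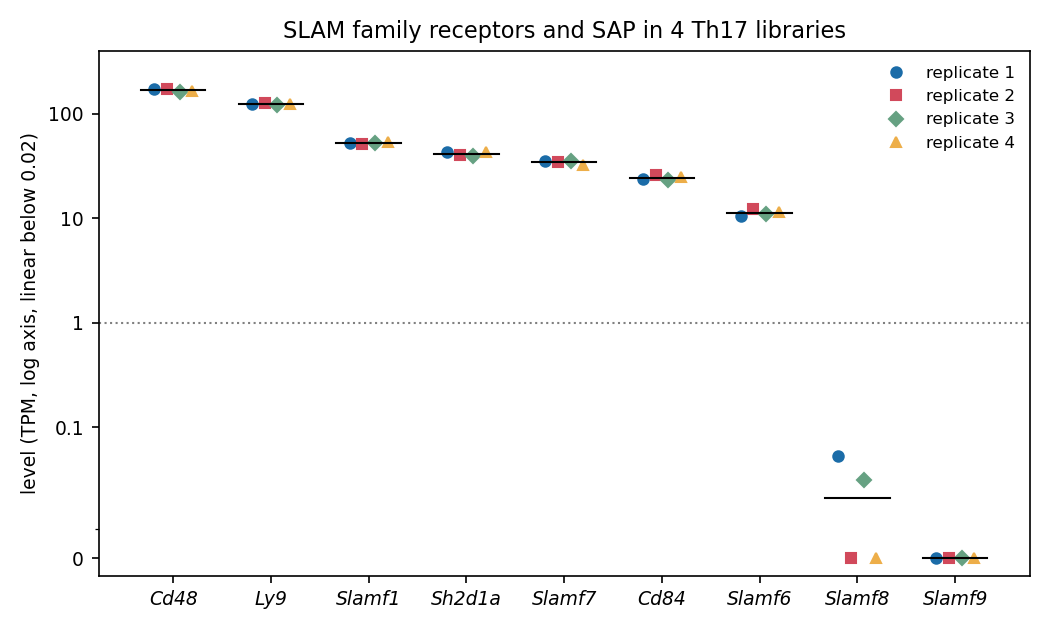
Level of each member in TPM by merged exon length (y axis, logarithmic above 0.02 and linear below) in replicates 1 to 4, with a bar at the mean and a dotted line at 1 TPM. The 4 libraries of each expressed member lie close together and apart from the next member, from Cd48 at 168 TPM to Slamf6 at 11.3 TPM, while Slamf8 has counts in 2 libraries and Slamf9 in none.

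With merged exon lengths, the order of the 7 expressed members was the same in all 4 libraries. On that scale, no library of an expressed member reached into the range of its neighbour. Ly9 exceeded Slamf1 by 1.23 ± 0.05 and Cd84 exceeded Slamf6 by 1.05 ± 0.05 on the log2(TPM + 1) scale, the largest steps among the expressed members. The smallest step was from Sh2d1a to Slamf7, at 0.26 ± 0.09. Cd48 exceeded Ly9 by 0.44 ± 0.02, Slamf1 exceeded Sh2d1a by 0.33 ± 0.05, and Slamf7 exceeded Cd84 by 0.48 ± 0.11.

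An exact permutation test that flips the sign of each library's difference cannot fall below p = 0.13, two-sided, with 4 libraries, and it gave that value for each of the first 7 of the 8 neighbouring pairs. The adjusted p over the 8 pairs was 0.143 for these 7 in the exact test. Slamf8 and Slamf9 overlapped, with Slamf8 higher in 2 of 4 libraries and an adjusted exact p of 0.50.

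The place of Sh2d1a in this order depended on which exon length was used. Its merged exons span 5505 bases, of which the longest coding transcript covers 22.2%, the smallest share among the members. With the length of the longest coding transcript, an alternative chosen after the data were seen, the mean level of Sh2d1a was 134 ± 5.95 TPM, above Cd48 at 122 ± 3.64 TPM and Ly9 at 119 ± 2.25 TPM. With the median length of the coding transcripts it was 124 ± 5.39 TPM, above Ly9 at 86.2 ± 1.67 TPM and Cd48 at 85.9 ± 2.52 TPM. Exons of Tenm1 on the opposite strand cover 26.6% of the merged exon bases of Sh2d1a, and other genes, Tenm1 in the main, share 25.6% of its 50-base words. Its level is uncertain for that reason too, although the counting was by strand.

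Other members moved as well. Slamf6 was at 15.4 ± 1.14 TPM by the longest and 32.0 ± 2.43 TPM by the median length, and with the median length it lay above Cd84 at 29.0 ± 1.63 TPM. Slamf1 was at 86.3 ± 1.81 TPM and Cd84 at 32.2 ± 1.75 TPM by the longest length, where Cd84 lay above Slamf7 at 28.6 ± 0.961 TPM. Cd48, Ly9 and Sh2d1a held the top 3 places by the longest length and by the median length, and Cd48 and Ly9 held the top 2 by merged exons. With these transcript lengths, the ranges of some neighbours overlapped. By the longest length, Cd48 had 117 to 125 TPM and Ly9 had 116 to 121 TPM over the 4 libraries. By the median length, Slamf1 had 52.7 to 55.4 TPM and Slamf7 had 49.9 to 53.4 TPM. Cd84 had 27.4 to 31.0 TPM and Slamf6 had 29.3 to 35.1 TPM by the median length.

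**Figure D3:**
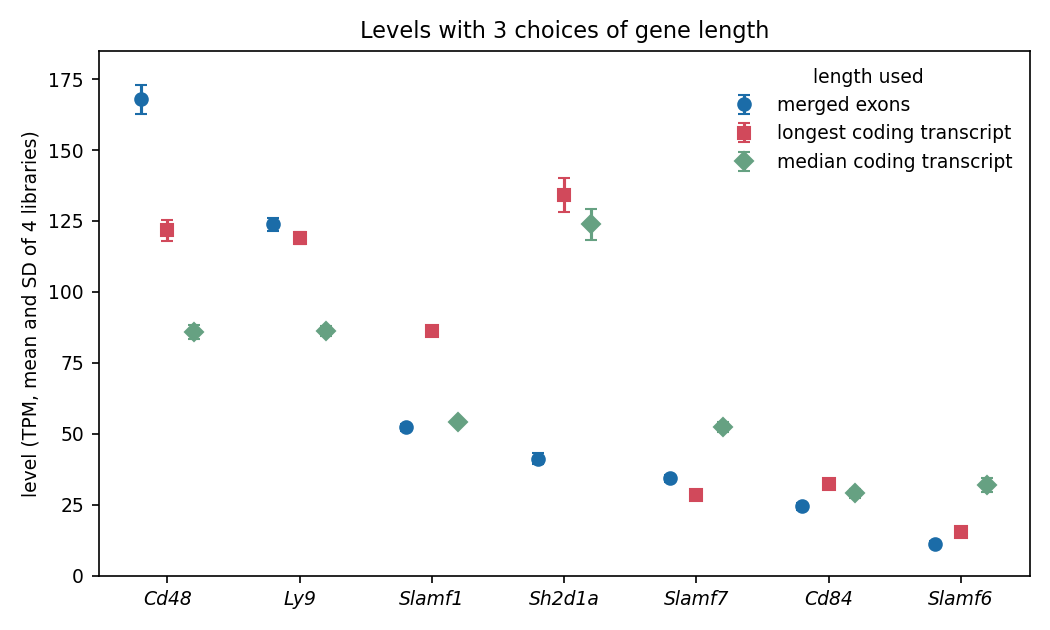
Mean level in TPM (y axis, linear from 0) of the 7 expressed members with 3 choices of gene length, with error bars for the SD of 4 libraries. Sh2d1a moves most, from 41.3 TPM with merged exons to 134 TPM with the longest and 124 TPM with the median coding transcript, while Cd48 moves down to 122 and 85.9 TPM.

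With merged exon lengths, the composition of the set was nearly the same in each library. Cd48 made up 36.9% ± 0.420 of the summed TPM of the 9 genes and Ly9 made up 27.2% ± 0.131 (SD, n = 4). Slamf1 followed with 11.5% ± 0.354, Sh2d1a with 9.06% ± 0.332 and Slamf7 with 7.54% ± 0.306. Cd84 held 5.36% ± 0.246 and Slamf6 held 2.48% ± 0.178. These shares depended on the length used more than on the library. With the longest and the median coding transcript, Sh2d1a held 24.97% and 26.7%, the largest share of the set in both, and Cd48 held 22.6% and 18.5%. The summed level of the 9 genes was 462, 461, 442 and 455 TPM in replicates 1 to 4, and the receptors together stood at 9.75, 10.5, 10.2 and 9.67 times the level of Sh2d1a. With the longest coding transcript that ratio was 2.91, 3.14, 3.07 and 2.90, and with the median it was 2.64, 2.89, 2.81 and 2.64.

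No expressed member was called as varying between libraries beyond the trend of genes of its abundance. A test of each gene's deviance at the dispersion trend that edgeR fits called 0 of the 7 members at an adjusted p under 0.05, beside 0.366% of 12849 genes tested. At an unadjusted p under 0.05 it also called 0 of the 7, beside 4.89%. The smallest unadjusted p was 0.34, for Slamf6, and its adjusted p in edgeR's fit was 1.0. Slamf8 and Slamf9 had too few counts to be tested.

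Among the expressed members, the spread relative to the mean was smallest for Ly9 and Slamf1 and largest for Slamf6, the lowest of them in level. The coefficient of variation was 1.93% for Ly9 and 2.08% for Slamf1, and 7.69% and 9.26% of 6433 protein-coding genes between 11.3 and 168 TPM varied less. It was 7.37% for Slamf6, with 82.5% of those genes varying less, and 4.45% for Sh2d1a, with 49.9% varying less. The median over those genes was 4.45%. Slamf6 sets the lower end of this range of levels, so its share is taken against genes of higher level only. The genes were matched by TPM and not by read pairs. Ly9 and Slamf1 had the most read pairs of the members, 17551 and 13884 over all libraries. Slamf6 had the fewest of the expressed members, 5189. The part of counting error in these spreads was not tested.

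All 8 receptor genes lie on chromosome 1 within 1002 kb, from Ly9 to Slamf8 (mm10 chr1:171588624-172590568). The 6 expressed receptors fill a block of 365 kb, from Ly9 to Slamf6, and Slamf9 and Slamf8 form a second block of 115 kb after a gap of 522 kb. The interval holds 28 protein-coding genes. Of the 20 that are not members, 10 lay above 1 TPM and 9 below, so genes on either side of that line lie next to each other along it.

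The only other gene wholly inside the first block was Gm10521, at 1.60 ± 0.430 TPM. Cd244a, which encodes the related receptor 2B4, overlaps Ly9 on the opposite strand and stood at 0.203 ± 0.0625 TPM. Between the blocks, 8 of 14 genes lay above 1 TPM, and they do varied work in the cell. Copa, a coat protein of transport vesicles, had 150.1 ± 3.86 TPM, Ncstn, a subunit of gamma-secretase, had 75.3 ± 2.88 TPM, and Pex19, a peroxisome factor, had 69.0 ± 0.901 TPM. Pigm (34.9 TPM), Dcaf8 (27.6 TPM), Igsf8 (19.8 TPM), Pea15a (18.3 TPM) and Vangl2 (1.22 TPM) were the others above that line.

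Casq1, Kcnj10, Kcnj9, Atp1a4 and Nhlh1 lay below it, at 0.166 TPM or less. In the second block, the actin-binding gene Tagln2 reached 726 ± 21 TPM between Slamf9 and Slamf8. Its neighbour Igsf9, at 0.992 ± 0.164 TPM, was not called either way, and Cfap45 and Vsig8 stood at 0.0181 and 0.0467 TPM. The nearest genes outside the interval were also low, with Itln1 at 0.0360 TPM and Fcrl6 without a count.

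**Figure D4:**
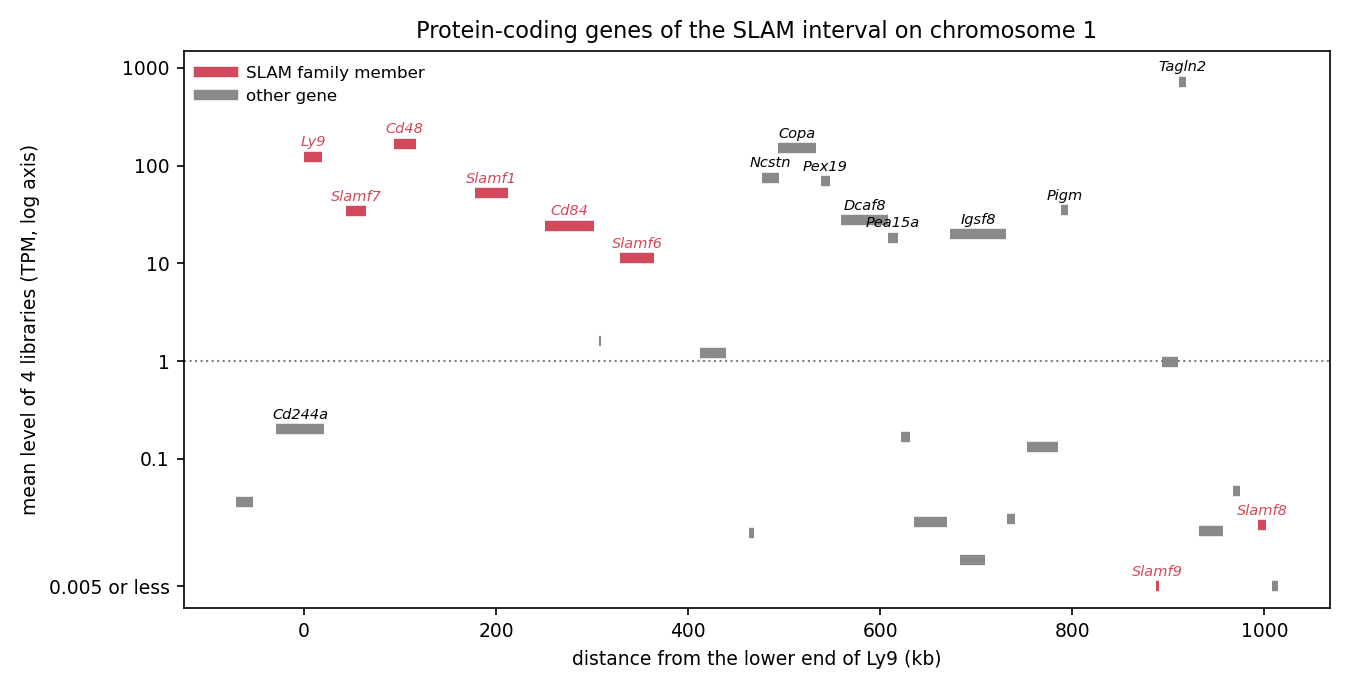
Mean level of 4 libraries in TPM (y axis, logarithmic, with values of 0.005 or less drawn at the bottom) of each protein-coding gene in and beside the receptor interval, against distance in kb from the lower end of Ly9. The 6 receptors on the left lie between 11.3 and 168 TPM, and Slamf9 and Slamf8 on the right lie near 0 on either side of Tagln2 at 726 TPM.

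Levels differed widely among the related receptors and adaptors outside the set. The list held 5 genes, of which 2 lay above and 3 below 1 TPM by the edgeR test, beside 45.9% and 51.7% of all protein-coding genes. DESeq2 called 2 above and 1 below, beside 45.7% and 15.5%, since it gives no p for the 2 genes without counts. The median of the list was 0.203 TPM, beside 0.411 TPM over all protein-coding genes. Cd2, the T cell adhesion receptor that binds CD48 in mice, had 163, 169, 175 and 184 TPM, and its libraries overlapped with those of Cd48. Crtam, which encodes an adhesion receptor of activated T and natural killer cells that binds CADM1 and is not a known SLAM partner, had 6.08, 5.99, 4.12 and 4.82 TPM.

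Cd244a, whose product 2B4 is the other partner of CD48, had 0.135, 0.177, 0.217 and 0.282 TPM, with an edgeR adjusted p of 4.23e-07 and one of 1.79e-07 from DESeq2. Its coding sequence held 4 matches to the switch motif, more than any member. Sh2d1b1 and Sh2d1b2, the genes of the adaptors EAT-2 and ERT that resemble SAP, had no count in any library, which allows up to 0.0275 TPM for each. SAP was thus the only one of the 3 related adaptor genes with counts.

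The listed signalling genes known to act after SLAM receptors and SAP were all present, in a list chosen with earlier results of these data known. All 22 lay above 1 TPM by the edgeR test, beside 45.9% of all protein-coding genes, at a median of 35.6 TPM. Lck, the kinase that starts T cell receptor signalling, had 593 ± 15.7 TPM, the phosphatase gene Ptpn6 had 382 ± 11.9 TPM, and Csk, whose product restrains Lck and Fyn, had 307.5 ± 11.9 TPM. Fyn, the kinase that SAP recruits, had 155 ± 6.50 TPM, and Prkcq, which acts with it, had 71.6 ± 2.28 TPM. Among the genes of phosphatases that compete with SAP for the motif, Ptpn11 and Inpp5d had 123 ± 4.19 and 28.2 ± 1.27 TPM. Pak1 was the lowest of the list at 5.26 ± 0.609 TPM.

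**Figure D5:**
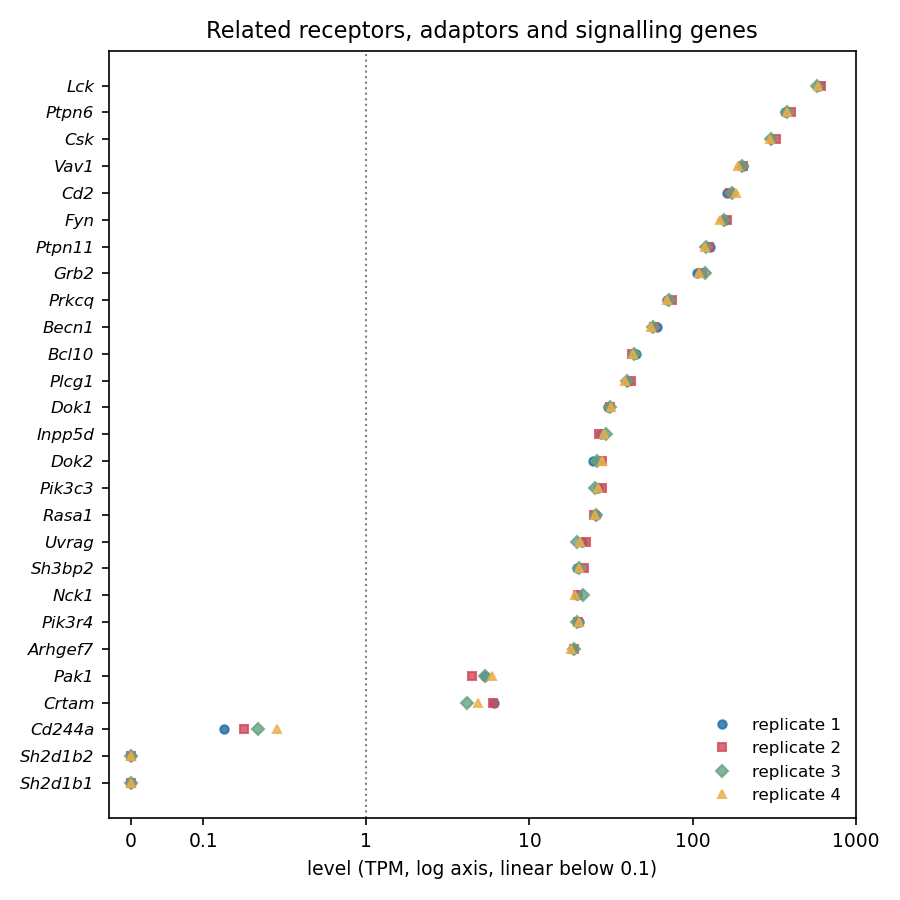
Level in TPM (x axis, logarithmic above 0.1 and linear below) of the related receptor, adaptor and signalling genes in replicates 1 to 4, with a dotted line at 1 TPM. Lck leads at 593 TPM, the 22 signalling genes and Cd2 and Crtam lie right of the line, and Cd244a, Sh2d1b1 and Sh2d1b2 lie left of it.

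Of 10 genes tied to T cell functions that need SAP in mice, 7 lay above and 3 below 1 TPM, at a median of 9.57 TPM. Of all protein-coding genes, 45.9% lay above and 51.7% below. Cd40lg, the ligand that activates B cells, had 589 ± 7.76 TPM, the inhibitory receptor gene Pdcd1 had 314 ± 14.7 TPM, and the cytokine gene Il21 had 209 ± 12.7 TPM. Bcl6 and Cxcr5, the regulator and the homing receptor of follicular helper cells, had 14.0 ± 1.18 and 5.14 ± 0.501 TPM. The genes below 1 TPM were Il4 at 0.129 ± 0.150 TPM, Ascl2 at 0.0613 ± 0.0709 TPM and Zbtb16, the regulator of natural killer T cells, at 0.00455 ± 0.00909 TPM. Without a SAP-deficient sample, none of these levels is a measure of SAP action here.

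Against a chosen list of 27 other T cell surface receptors, the members, among them the adaptor gene Sh2d1a, were of middle to low level. Of these 27 genes, 25 lay above and 2 below 1 TPM, beside 45.9% and 51.7% of protein-coding genes. Their median was 176 TPM, beside 0.411 TPM over all protein-coding genes. Cd5, Cd6 (1225 ± 41.0 TPM) and Btla (665 ± 8.73 TPM) were highest and Havcr2 was lowest at 0.0759 ± 0.0397 TPM. Cd48 had a lower mean than 15 of the 27 and a higher one than 12, and Ly9 a lower one than 16. Slamf1, Sh2d1a and Slamf7 were each above 4 of them, Cd84 and Slamf6 were above 3, and Slamf8 and Slamf9 were below all 27. With the longest and the median coding transcript, Sh2d1a was above 12 and 9 of them, Cd48 above 11 and 6, Ly9 above 11 and 6, and Slamf1 above 7 and 4.

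Likeness was measured as the mean absolute difference in log2(TPM + 1) within the 4 libraries, over the same 27 genes and with merged exon lengths. Cd48 lay nearest to Thy1, at a difference of 0.04 and a level of 168 ± 6.06 TPM, followed by Tigit at 0.18. Ly9 lay nearest to Icos, at 0.04 and 127 ± 2.53 TPM, followed by Cd3e at 0.06. Slamf1 lay nearest to Selplg (0.12, followed by Cd96 at 0.71), and Slamf7 lay nearest to Cd96 (0.11, followed by Selplg at 0.72). For Sh2d1a the nearest were Cd96 at 0.37 and Selplg at 0.46, and for Cd84 they were Cd96 at 0.36 and Selplg at 1.19. Slamf6 had no close neighbour in the list, with Cd96 at 1.41 and Il7r at 1.45. These neighbours changed with the length used. With the longest coding transcript Tigit was nearest to Sh2d1a (0.17), Cd48 (0.21) and Ly9 (0.23), and with the median Cd44 was nearest to Sh2d1a (0.14). These are likenesses of level over 4 libraries of 1 group and carry no test.

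SLAM receptors are also found on B cells, natural killer cells, platelets and myeloid cells, so markers of these cells are given beside the members' levels. Of 10 B cell and plasma cell markers, Sdc1 lay above 1 TPM at 4.69 ± 0.701 TPM and 9 lay below. Over all protein-coding genes, 45.9% lay above and 51.7% below, the shares to set beside each marker list given here. Among the 9 were Cd79b at 0.337 ± 0.198 TPM, Cd79a at 0.139 ± 0.177 TPM and Ms4a1, the lowest, at 0.00777 ± 0.0155 TPM. The Mzb1 value is uncertain because other genes share 53.5% of its 50-base words. The list summed to 5.02 to 6.14 TPM. Of 10 markers of natural killer and CD8 T cells, Cd8b1 (14.4 ± 1.4 TPM) and Nkg7 (2.15 ± 0.743 TPM) lay above, Prf1 (1.19 ± 0.724 TPM) was not called, and 7 lay below, at a sum of 17.7 to 18.3 TPM. Among those 7, the other CD8 gene of the list, Cd8a, stood at 0.101 ± 0.0412 TPM. Klrb1c, Ncr1, Gzma and Klra8 had no count, and the Klra8 value is uncertain because other genes share 33.1% of its 50-base words.

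Of 5 platelet markers, Itga2b (0.930 ± 0.0715 TPM) was not called and the other 4, Pf4, Ppbp, Gp9 and Gp1ba, had no count, at a sum of 0.828 to 0.995 TPM. In the macrophage and dendritic cell list the highest were Fcgr3 at 0.182 ± 0.151 TPM, Adgre1 at 0.0837 ± 0.0569 TPM and Flt3 at 0.0787 ± 0.0116 TPM. The part of such other cells in the members' levels was not tested.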

How the data were processed

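The deposited values are whole-number counts, 1 per gene, of read pairs. Per the file headers, featureCounts 1.4.6-p4 counted pairs with both ends mapped over exons of GENCODE M13 (mm10), in reverse-stranded mode and without multi-mapping reads. The assay is labelled total RNA-seq, whereas the protocol that the labels link is named for poly(A) RNA. The aligner: not given in the sources used here. Symbols came from GENCODE M21 by identifier, for 50376 (99.6%) of 50600 genes.

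TPM was derived from these deposited counts and the merged exon lengths in the same tables. Level tests used edgeR 4.0.16 in R 4.3.3 on counts of 21764 protein-coding genes, as its quasi-likelihood test of each gene's mean against the count that 1 TPM gives, two-sided, at 0.05. Variation was tested at edgeR's trended dispersion, TMM-normalized and one-sided, where the mean reached 10 counts. Both tests were first tested on simulated data. Alternatives included limma 3.58.1, DESeq2 1.42.0 and its size factors, filters, pseudocounts, lengths and levels, and leaving out each library.

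Sequences were read by script from M21 transcripts. A level is called uncertain where another gene's transcripts hold at least 25% of the gene's 50-base words, on either strand. A limit for a gene without counts is 3 counts over the 4 libraries. It covers counting error only, since reads carry no molecular identifiers.

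The members, lists and naming rule were chosen with earlier results of these data known. The rule names all members and the 5 related receptors and adaptors, the 3 highest and the lowest gene of each other list, the 2 surface receptors nearest to each expressed member, and the genes of the chromosome 1 interval with 1 on each side. The value of 1 gene that the rule names is not reported here. Fyn, Prkcq, Ptpn11, Inpp5d, Bcl6, Cxcr5, Il4, Ascl2, Xist, Ddx3y, Ahr, Cd8a, Itgam and marker genes without counts were named after their values were seen.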

Additional observations from a re-analysis of the deposited data

How the results depend on the processing

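Of 412 recomputed results, 366 kept their direction and their side of the threshold, or moved by less than 1 SD or 1.5 times, 41 moved further and 5 reversed. Differences between neighbours were counted as kept by sign and not by size. With the longest coding transcript, Cd48 minus Ly9 went from 0.44 to 0.03 and Sh2d1a minus Slamf7 from 0.26 to 2.19, both counted as kept. All reversals were differences between neighbours under transcript lengths chosen after seeing the data: Slamf1 minus Sh2d1a was -0.63 with the longest and -1.18 with the median coding transcript, Slamf7 minus Cd84 was -0.17 with the longest, and with the median Cd48 minus Ly9 was -0.0051 and Cd84 minus Slamf6 was -0.14. The Cd48 share became 12.5% of counts, 40.1% with exons less 200 bases, 22.6% with the longest and 18.5% with the median transcript. DESeq2 called 3365 protein-coding genes below 1 TPM and a mean of at least 10 counts left 770; 1 and 0 members were then below, since DESeq2 gives no p for Slamf9, without counts, and the count minimum leaves Slamf8 and Slamf9 untested. DESeq2 also left 1 related receptor or adaptor, 1 surface receptor, 6 macrophage and dendritic cell markers, 3 natural killer and CD8 markers and 0 platelet markers below. At 0.5 TPM 1 surface receptor was below and 1 platelet marker above, and at 2 TPM 1 natural killer and CD8 marker was above. Genes varying between libraries numbered 356 with a common dispersion and 24 to 39 with 1 library left out (24 without replicate 4). Rescaling between libraries changed no member's call. No paired analysis was possible because there is 1 group. Depth limits Slamf8 and Slamf9, and no precursor or untreated cells were included, so levels cannot be read as induction.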
